A study of Mus musculus with 26 samples.

Results

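The 10 genes described here were taken by symbol from the deposited normalized table of 21031 genes. Pdgfra, Dpt, Pi16, Lum, Dcn, Ly6a and Cd34 were chosen as 7 markers of adventitial fibroblasts. Cpxm1, Gpr153 and Twist2 were chosen by measured values, their higher fold changes in point mutants, so what they show in those comparisons is a description and carries no test. They were measured by RNA sequencing of whole mesenteric arteries, the resistance vessels that supply the gut, from male mice aged 8 weeks. The 26 libraries compared mice altered in Panx1, which encodes the ATP-releasing membrane channel pannexin 1, with controls. A global Panx1 KO (3 libraries) was set beside WT (3). The point mutants, written Y198F+/+ (3), S205A+/+ (4) and Y308F+/+ (3), were set beside controls that the labels write Y198F-/- (3), S205A-/- (4) and Y308F-/- (3), which are littermates or WT. Each point mutant carries 1 changed residue of the channel in every cell that makes it, and no treatment was given to any group as far as the labels state. The design text gives 3 vascular trees per genotype, fewer than the 4 libraries of either S205A group. The labels do not say that replicates are separate animals, so p-values measure the spread between these libraries.

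The adventitia is the outer coat of an artery, where fibroblasts deposit collagen, elastin-associated proteins and proteoglycans around the smooth muscle. Its fibroblasts carry PDGFRA, a receptor tyrosine kinase for platelet-derived growth factors, and a progenitor-like subset is known for PI16, LY6A (Sca-1) and CD34. LY6A and CD34 are also surface proteins of endothelial cells, so in a whole artery their transcripts have more than one cellular source.

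Deposited counts per library summed to between 14.9 and 23.6 M reads. Levels are given as CPM, counts per M (SI mega) of TMM-scaled library size, a scaling that removes differences in total depth. A number starting with 22 stands in the names of 9 libraries, referred to below as the 22 series. They are S205A mutants 2 to 4, S205A controls 1 to 3 and all 3 Y198F mutants. The labels do not say what that number means. Ribosomal RNA took 0.0831% to 0.139% of counts in the 22 series and 2.32% to 7.09% in the other 17 libraries. Panx1 itself, the check of the knockout label, lay at 0.582 to 1.36 CPM in the KO libraries and at 3.38 to 4.96 CPM in WT. S205A control 1 stood apart from the other libraries: its summed endothelial markers were 1379 CPM, against a median of 5038 over all 26 libraries, and its summed smooth muscle markers were 44275 CPM, the highest of the 26. Values that use it are followed, where stated, by the value without it.

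For 7 of the 10 genes the RefSeq table held a promoter of 300 bases, from 250 before to 50 after the start of transcription; it held none under the symbols Dcn, Lum and Ly6a. The table is of build GRCm38.p6, and each promoter was matched exactly to GRCm39 for its position. TWIST2 is a basic helix-loop-helix factor that binds the E-box, CANNTG, which reads the same pattern on both strands. E-boxes numbered 7 in the Dpt window, 2 in that of Pdgfra, 1 each in those of Cpxm1, Gpr153 (for each of its starts) and Pi16, and 0 in those of Cd34 and Twist2. Of 27025 promoters of the same length, 72.1% hold at least 1 E-box. The Dpt stretch is shown because 4 of its E-boxes crowd the start, the last directly followed by TATAAA, a motif that 14.2% of promoters hold on either strand; the E-box CATCTG is CAGATG on the opposite strand. The Pdgfra and Twist2 stretches are shown because both hold the same run of 16 bases, TCCTGACAGCTATTTA, which on either strand occurred in 2 of the 27025 promoters, these 2. The run was found by comparing the members' promoters with one another and is a match of letters, not a site. Capitals mark E-boxes and TATAAA in Dpt and the shared run in Pdgfra and Twist2, all on the plus strand of GRCm39.
Dpt, chr1:164624112-164624251: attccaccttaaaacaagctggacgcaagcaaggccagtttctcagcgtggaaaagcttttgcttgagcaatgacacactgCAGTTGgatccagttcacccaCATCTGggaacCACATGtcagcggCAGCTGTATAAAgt
Pdgfra, chr5:75312852-75312941: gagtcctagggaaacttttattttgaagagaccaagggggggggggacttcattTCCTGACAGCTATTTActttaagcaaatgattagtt
Twist2, chr1:91729083-91729202: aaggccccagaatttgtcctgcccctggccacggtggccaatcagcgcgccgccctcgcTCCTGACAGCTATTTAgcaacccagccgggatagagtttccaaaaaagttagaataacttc
The run covers bases -6 to 10 around the Pdgfra start and bases -41 to -26 before the Twist2 start. In the expression data the deviations of Pdgfra and Twist2 from their group means had a Pearson r of 0.41 over 24 libraries, against 0.94 for Pdgfra and Dcn (0.39 and 0.95 over 23 libraries without S205A control 1). Twist2 had only 7 to 66 counts a library, so counting noise limits its r. In levels, Pdgfra and Twist2 had r = 0.26 in the 17 libraries outside the 22 series and 0.69 in the 9 of it. Over 8 of those 9, without S205A control 1, r was 0.59.

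All 10 genes were detected in all 26 libraries, from 7 counts of Twist2 to 25998 counts of Dcn. Expressed per kilobase of annotated exon, Ly6a had the highest mean level over the 26 libraries, 107 CPM per kilobase ± 35.4 (SD). Dpt (60.3 ± 34.2), Dcn (53.0 ± 28.0), Cd34 (44.1 ± 11.2) and Pi16 (31.5 ± 10.6) came next on the same scale. Lum followed at 16.2 CPM per kilobase ± 8.50, and Pdgfra, Cpxm1 and Gpr153 lay close together at 3.39 ± 1.94, 3.01 ± 1.77 and 2.90 ± 1.28. Twist2 was the lowest, at 0.267 CPM per kilobase ± 0.136. Per kilobase of the longest transcript Ly6a was still the highest, at 129 CPM, followed by Dcn at 111 and Cd34 at 88.1. On that scale Lum was at 25.1, Pdgfra at 5.71 and Twist2 at 0.493, so that Pdgfra stood above Cpxm1 (3.34) and Gpr153 (2.91). Twist2 shares sequence with 2 annotated long non-coding genes on its own strand, Gm29101 and Gm70667, and whether counting used the strand is not stated, so its low level is uncertain. Cd34, Cpxm1, Dpt, Ly6a, Pdgfra and Pi16 also overlap other annotated genes, while Dcn, Lum and Gpr153 overlap none.

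Pdgfra, the receptor, was read at 86.1, 45.4 and 54.0 CPM in the 3 WT libraries and at 55.8, 53.9 and 80.1 CPM in the 3 KO libraries. In the Y198F line it was at 50.6, 56.3 and 47.5 CPM in the controls and at 29.99, 13.4 and 34.4 CPM in the mutants. In the S205A line it was at 7.05, 10.9, 8.72 and 34.2 CPM in controls 1 to 4 and at 59.4, 13.4, 100.2 and 26.5 CPM in mutants 1 to 4. The 3 lowest of the 26 libraries were thus S205A controls 1 to 3, all of the 22 series, and the highest was S205A mutant 3, of the same series. The Y308F line lay between, at 44.7, 45.4 and 16.4 CPM in controls and 35.1, 27.4 and 47.4 CPM in mutants.

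**Figure D1:**
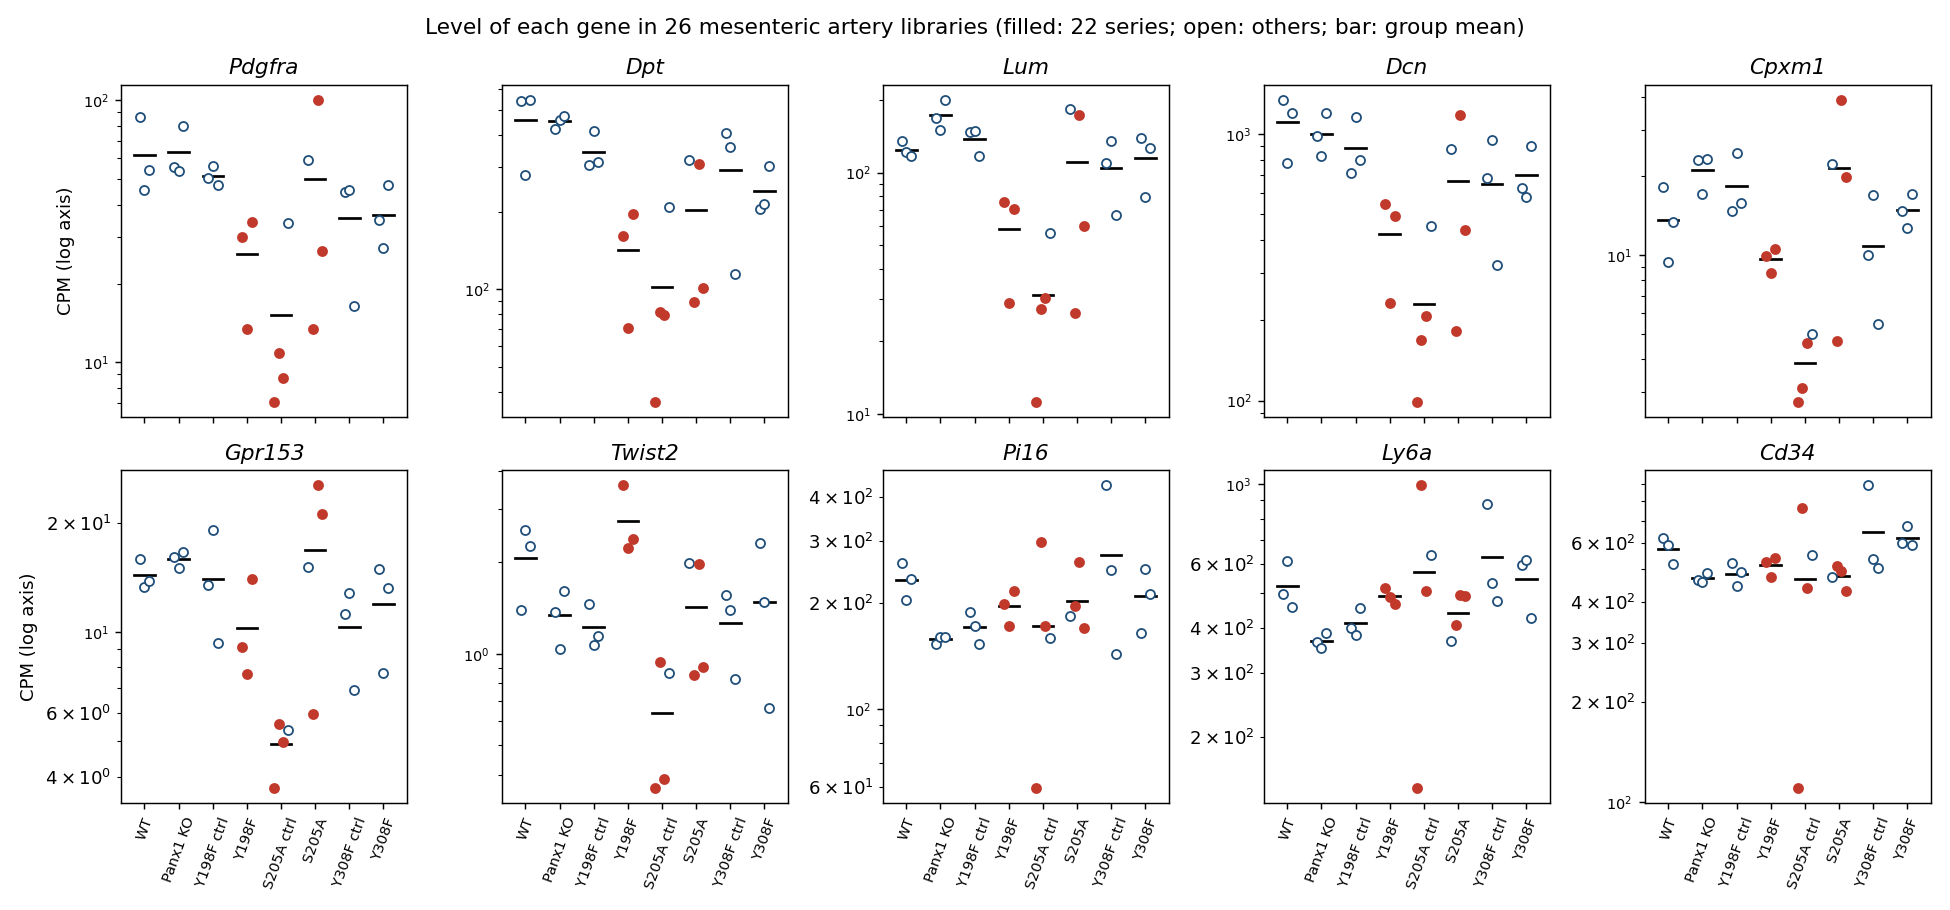
Level of each of the 10 genes in CPM (log axis) in every library, by group; filled points are libraries of the 22 series, open points the other 17, and bars are group means. The S205A controls hold the lowest group mean for Pdgfra, Dpt, Lum and Dcn with or without S205A control 1, while Pi16 and Ly6a were lowest in the KO group.

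Across groups, Pdgfra, Dpt, Lum, Dcn and Cd34 had their lowest mean in the S205A controls, and Pi16 and Ly6a had theirs in the KO libraries. For Cd34 this rests on S205A control 1: the S205A control mean was 467 CPM ± 273 (SD, n = 4) with it and 586 CPM ± 166 (SD, n = 3) without it, against 469 CPM ± 14.6 in KO, which is then the lowest. The lowest group of the other 6 markers was the same without that library. Cpxm1, Gpr153 and Twist2 were also lowest in the S205A controls, but those levels entered the fold changes that picked them. Means in the S205A controls were 15.2 CPM ± 12.7 (SD, n = 4) for Pdgfra, 31.2 ± 18.7 for Lum, 231 ± 153 for Dcn and 102 ± 74.6 for Dpt. The highest means were in KO for Pdgfra (63.3 CPM ± 14.6, SD, n = 3) and Lum (172 ± 25.4), in WT for Dcn (1108 ± 296) and Dpt (455 ± 152), and in the Y308F controls for Pi16 (274 ± 145), Ly6a (628 ± 219) and Cd34 (646 ± 215). When the 8 group means of a gene were put in order, neighbours rarely differed beyond their spread: for Pdgfra, Lum, Dcn, Pi16, Ly6a and Cd34 none of the 7 steps exceeded the sum of both SDs, and for Dpt, Cpxm1, Gpr153 and Twist2 1 step did. Among the control groups outside the 22 series (WT, Y198F-/- and Y308F-/-), the edgeR F test called none of the 7 markers, with adjusted p from 0.712 to 0.819. It called 0 of 16745 genes (0%), with 1178 at an unadjusted p under 0.05, and DESeq2 called 51.

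In their deviations from group means the 10 genes did not vary as 1 set. After each library was set against the mean of its group within its library series, which leaves 24 libraries, Pdgfra, Dpt, Lum, Dcn, Cpxm1 and Gpr153 deviated together, with Pearson r from 0.65 to 0.94 over their 15 pairs. Pi16, Ly6a and Cd34 formed the other set, with r from 0.84 to 0.95 over 3 pairs. Between the sets r ran from 0.07 to 0.70, the highest being Dpt with Pi16. Twist2 had r of 0.25 to 0.55 with the other 9. Without S205A control 1, over 23 libraries, r was 0.64 to 0.95 within the first set, 0.61 to 0.82 within the second and -0.13 to 0.69 between them. Pi16 then followed Dpt (0.69) more closely than Ly6a (0.61), and Twist2 had r of 0.23 to 0.68, the highest with Ly6a, so the second set is less clearly bounded without that library. The libraries share their depth scaling and their dissection, so these values are descriptions and carry no test.

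The second set followed Pecam1, an adhesion molecule of endothelial cells and a defining endothelial marker, with r of 0.83 for Pi16, 0.94 for Ly6a and 0.95 for Cd34, while the 6 genes of the first set had r from -0.05 to 0.28 with it. S205A control 1 carried part of this: it had 110.4 CPM of Cd34, 145 CPM of Ly6a and 59.8 CPM of Pi16, in each case the lowest of the 26 libraries, and 575 CPM of Pecam1. Without it, over 23 libraries, r with Pecam1 was 0.57 for Pi16, 0.78 for Ly6a and 0.84 for Cd34, and -0.29 to -0.03 for the first set. Against Myh11, the smooth muscle myosin heavy chain, all 10 genes had a negative r, from -0.69 to -0.21, and against Adipoq, an adipocyte hormone, from -0.05 to 0.38. These ranges were -0.64 to -0.18 and -0.12 to 0.40 when S205A control 1 was left out.

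**Figure D2:**
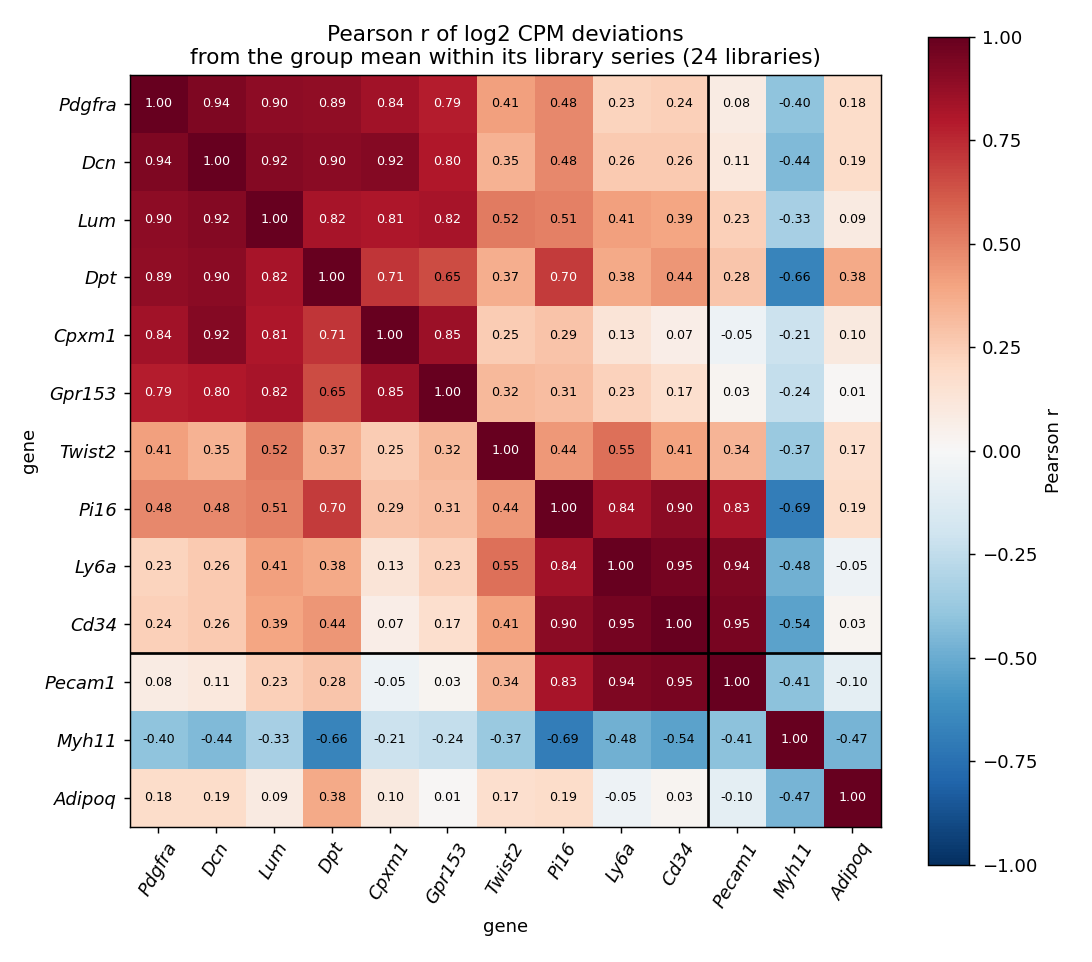
Pearson r between deviations of log2 CPM from the group mean within its library series, over 24 libraries; the black lines set off 3 marker genes of endothelium (Pecam1), smooth muscle (Myh11) and adipocytes (Adipoq). Pdgfra, Dcn, Lum, Dpt, Cpxm1 and Gpr153 form one block, and Pi16, Ly6a and Cd34 form another together with Pecam1.

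Levels were also compared within each library series. The permutations behind the p-values here and for Pecam1 below shuffled libraries across groups. Differences between group means and the shared dissection therefore enter them, and they do not test a relation within groups. In the 17 libraries outside the 22 series, Pdgfra and Dcn, the gene of the collagen-binding proteoglycan decorin, had r = 0.91 and rho = 0.89, with permutation p of 1e-05 for both, the smallest that the draws can give, and r = 0.82 without the 2 libraries farthest from the median. In the 9 libraries of the 22 series they had r = 0.97 and rho = 0.90, with exact permutation p of 0.000149 and 0.00203. Pdgfra and Cd34, in contrast, had r = -0.19 in the 17 and r = 0.38 in the 9, with permutation p of 0.431 and exact p of 0.25. Over the 8 libraries of the 22 series that leave out S205A control 1, r with Pdgfra was 0.97 for Dcn and -0.15 for Cd34. Among the 30 relations of Pdgfra computed, Dpt, Lum and Dcn passed at an adjusted p under 0.05 in both sets of libraries, on r and on rho. In the 17 libraries Ptprc, a pan-leukocyte gene, passed on r (0.81, permutation adjusted p 0.00111) and not on rho (0.51, 0.0782), while Ly6a and Pecam1 passed on rho with a negative sign (-0.69, 0.00825, and -0.67, 0.012) and not on r. Cpxm1 and Gpr153 had r of 0.74 and 0.75 with Pdgfra in the 17 and 0.92 each in the 9. The p of those 2 genes is not given, since the libraries include the mutants whose values picked them. Ptprc was read at 0.606 to 16.4 CPM.

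Cd34 and Pecam1 had r = 0.78 (rho = 0.69, permutation p of 0.00025 and 0.00247) in the 17 libraries and r = 0.99 (rho = 0.90, exact permutation p of 0.000482 and 0.00203) in the 9. Without the 2 farthest libraries r was 0.45 and 0.73, so part of the relation rests on those libraries. Ly6a and Pecam1 had r = 0.72 in the 17 libraries and 0.46 without the 2 farthest. The relation of Pi16 with Pecam1 did not pass in the 17, with r = 0.49 (adjusted permutation p 0.116), rho = 0.16 and r = -0.24 without the 2 farthest. Within the 22 series the relations of Pi16 and Ly6a with Pecam1 rest on those libraries: r was 0.95 and 0.97 with all 9 and 0.03 and -0.73 without the 2. With only S205A control 1 left out, over 8 libraries, r with Pecam1 was 0.70 for Pi16, 0.89 for Ly6a and 0.94 for Cd34, and rho was 0.55, 0 and 0.86. The 20 relations with Pecam1 were added after the levels had been seen.

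**Figure D3:**
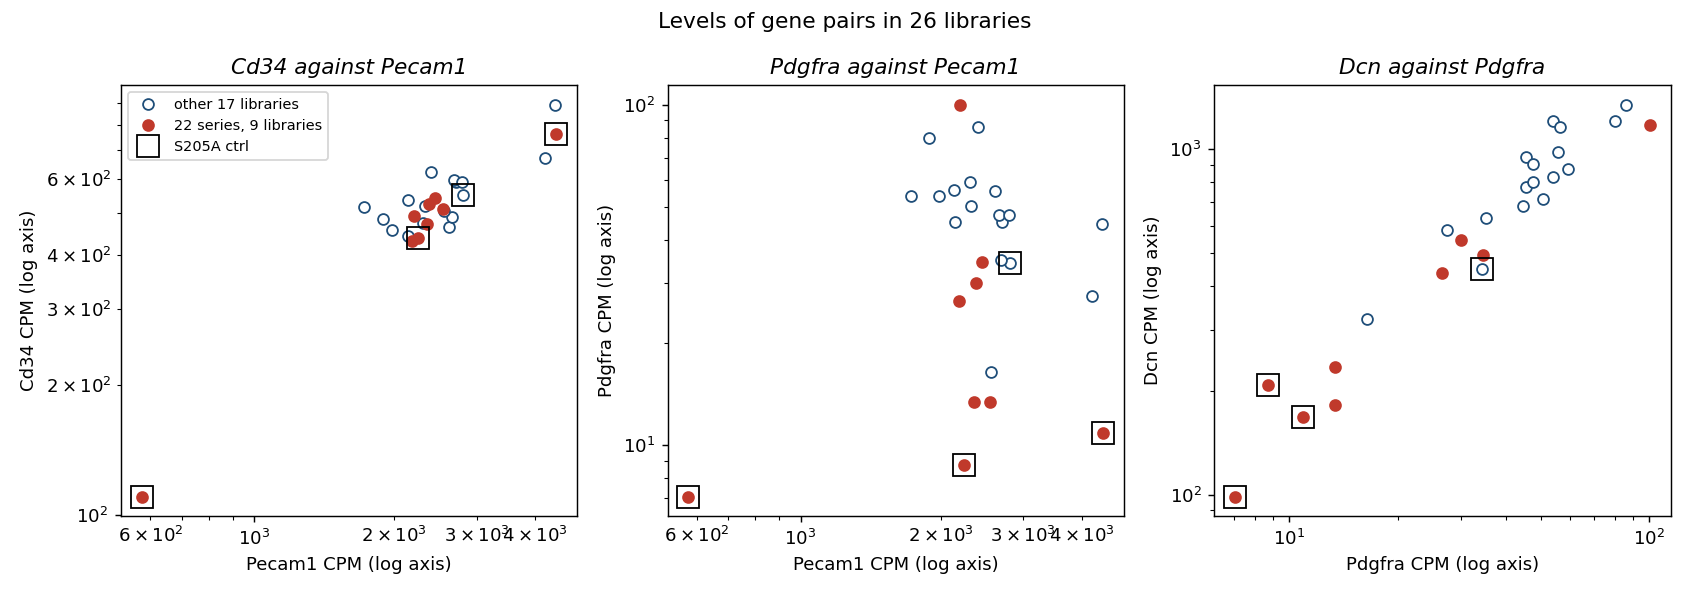
Levels in CPM (log axes) of Cd34 against Pecam1, Pdgfra against Pecam1 and Dcn against Pdgfra in 26 libraries; filled points are the 22 series and squares mark the 4 S205A controls. S205A control 1 is lowest on every axis, at 575 CPM of Pecam1, 110.4 CPM of Cd34, 7.05 CPM of Pdgfra and 98.6 CPM of Dcn.

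The genes nearest to each pattern were listed with and without S205A control 1. With the mean of the 7 markers as the pattern, the 5 nearest of 12523 genes over the 24 libraries were S100a10 (r = 0.94), Pcolce2 (0.93), Rnase4 (0.93), Serpinf1 (0.92) and Bace2 (0.91). Pcolce2 encodes an enhancer of procollagen processing and Serpinf1 encodes the secreted pigment epithelium-derived factor. With Pdgfra alone, a pattern added later, they were Syk, Svep1, Fbln1, Dcn and Gabra3, all at r of 0.93 to 0.94. Fbln1 and Svep1 encode extracellular matrix proteins. With Cd34 alone, also added later, they were Cyb561, Sulf2, Gxylt2, Icam2 and 4930506M07Rik, at r of 0.97 to 0.98. Icam2 encodes an endothelial adhesion molecule. Without S205A control 1, over 23 libraries, 4 of the 5 nearest to Pdgfra were the same, with Aff3 in place of Gabra3, while 1 of 5 was the same for the mean of the markers (S100a10, r = 0.91) and 1 of 5 for Cd34 (Sulf2, r = 0.96). The others were then Mfap5, Gabra3, Rab3il1 and Clec3b for the markers (r of 0.87 to 0.88), and Galnt10, St3gal4, Dchs1 and Parvb for Cd34 (r of 0.93 to 0.95), so both of those lists rest on that library.

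In S205A+/+ libraries against S205A-/- controls 6 of the 7 markers had higher fitted levels in the mutants, Ly6a being the exception, and the fitted differences of Pdgfra, Lum and Dcn were larger than in the other labelled comparisons. Without S205A control 1, Pi16 and Cd34 were lower as well. The ranking by size rests in part on S205A mutant 3. Without it the log2 fold changes of Pdgfra and Dcn were 1.12 and 1.11, beside -0.99 and -1.08 in Y198F against its labelled controls. Lum, which encodes the collagen-binding proteoglycan lumican, was at 183, 26.2, 173 and 60.03 CPM in mutants 1 to 4 and at 11.2, 27.1, 30.3 and 56.2 CPM in the controls. Dcn was at 877, 182, 1176 and 438 CPM in the mutants and 98.6, 168, 207 and 451 CPM in the controls. Dpt, which encodes the matrix protein dermatopontin, was at 319, 89.0, 306 and 101 CPM in the mutants and 36.4, 81.5, 79.7 and 209 CPM in the controls. For these genes and for Pdgfra the groups overlapped: mutant 2 lay within the range of the controls for all 4 genes, mutant 4 did for Pdgfra, Dcn and Dpt, and control 4, the only control outside the 22 series, was the highest of its group. The log2 fold changes were 1.71 (SE 0.686) for Pdgfra, 1.82 (SE 0.648) for Lum, 1.53 (SE 0.609) for Dcn and 1.00 (SE 0.588) for Dpt, each with an edgeR adjusted p of 1.

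Pi16, Ly6a and Cd34 did not follow them. Their log2 fold changes were 0.23 (SE 0.396), -0.37 (SE 0.455) and 0.03 (SE 0.454), again with an adjusted p of 1. Cd34 was at 474, 512, 494 and 430.4 CPM in the 4 mutants, a narrow range, and at 110.4, 765, 439 and 553 CPM in the controls, a range that enclosed it. Without S205A control 1 the fold changes of Pi16, Ly6a and Cd34 were -0.05, -0.69 and -0.29, and those of Pdgfra, Lum, Dcn and Dpt were 1.48, 1.55, 1.28 and 0.73. Without S205A control 4 those of Pdgfra, Lum, Dcn and Dpt were 2.49, 2.28, 2.08 and 1.63.

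None of the 7 markers passed in the S205A comparison, in which edgeR called 0 of 15709 genes (0%). At an unadjusted p under 0.05 it had 451 genes, limma voom with quality weights called 0, and DESeq2 called 38. None of the 7 was called under any alternative tried here for that comparison. The authors' deposited table, which a DESeq2 fit of all libraries matched, gives Lum 1.81 on the log2 scale (adjusted p 0.0481) and Pdgfra 1.70 (0.2). Within the 22 series alone, with 3 libraries a group, log2 fold changes were 2.40 (SE 0.751) for Pdgfra, 1.92 (SE 0.738) for Lum, 1.93 (SE 0.690) for Dcn and 1.33 (SE 0.570) for Dpt, with an edgeR adjusted p of 1 for each. In that restricted comparison Pdgfra and Dpt did not overlap, where 4.19% of 15704 genes were higher without overlap; edgeR called 0 genes (0%), with 535 at an unadjusted p under 0.05, and DESeq2 called 57, with Pdgfra among them at an adjusted p of 0.0428. S205A mutant 3 weighs on these values: without it the log2 fold changes of Pdgfra, Lum, Dcn and Dpt were 1.17, 0.92, 0.97 and 0.53 within the 22 series, and that of Pdgfra was 1.12 in the whole S205A comparison. The values within the 22 series but without S205A control 1 were 2.27, 1.60, 1.69 and 1.05 for Pdgfra, Lum, Dcn and Dpt, and -0.16, -0.68 and -0.32 for Pi16, Ly6a and Cd34. Within the 22 series all 15 other fibroblast genes were positive (median 1.501), and so were 6 of 6 Schwann cell (1.24), 6 of 6 macrophage (0.93), 5 of 5 tested lymphoid (0.96) and 4 of 5 lymphatic endothelial markers (1.48), with none called. The counts with S205A control 1 left out were 14 of 15 (median 1.13), 6 of 6 (1.47), 6 of 6 (0.92), 4 of 6 (0.40) and 4 of 5 (1.22). The part of these markers in the result was not tested.

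Cpxm1, Gpr153 and Twist2 had been picked for their rise in point mutants, and their S205A values are given as a description. Cpxm1, which encodes a secreted carboxypeptidase-like protein of the extracellular matrix, was at 2.75, 3.12, 4.61 and 5.01 CPM in S205A controls 1 to 4 and at 22.3, 4.71, 39.0 and 19.9 CPM in mutants 1 to 4, a log2 fold change of 2.47. Gpr153, an orphan G protein-coupled receptor gene, was at 3.73, 5.59, 4.997 and 5.39 CPM in the controls and 15.1, 5.96, 25.3 and 21.1 CPM in the mutants, a log2 fold change of 1.77. Mutant 2 lay beside the controls for both genes, which left Cpxm1 overlapping and Gpr153 separated by less than 1 CPM; 1.16% of 15709 genes were higher without overlap. All 4 S205A controls lay below each of the 22 libraries of the other groups for Gpr153, and all but 1 of those 22 exceeded the highest control for Cpxm1, the exception being S205A mutant 2. Twist2 was at 0.363, 0.941, 0.389 and 0.863 CPM in the controls, 7 to 16 counts a library, and at 2.00, 0.851, 1.97 and 0.903 CPM in the mutants, a log2 fold change of 1.16. Those of Cpxm1, Gpr153 and Twist2 were 2.34, 1.66 and 0.97 without S205A control 1. The values that picked them are in the authors' deposited table, where Cpxm1 had an adjusted p of 4.64e-06, Gpr153 of 0.000179 and Twist2 of 0.415 in S205A.

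Genes of related groups were read from lists. Of 15 other fibroblast genes, all 15 had a positive log2 fold change in S205A, with a median of 1.24 against -0.01 over all genes tested, and none passed. Their summed level was 1534 to 2857 CPM in the 4 controls, 2651 to 2857 CPM without control 1, and 2962 to 7603 CPM in the 4 mutants. Without control 1, 14 of 15 were positive with a median of 0.99. Of 10 adventitial progenitor genes 7 were positive (median 0.43), of 9 fibroblast activation and fibrillar collagen genes 7 (median 0.35), and of 7 other small leucine-rich proteoglycans tested 7 (median 0.47), with none passing in any list. The 6 PDGF ligands and other receptor genes had a median of 0.04, with 4 positive, the 9 tested mesenchymal transcription factors and Twist partners 0.06, with 8 positive, and the 6 tested carboxypeptidase genes related to Cpxm1 0.03, with 4 positive. Markers of other cells were read the same way: 6 of 6 Schwann cell genes (median 0.91) and 6 of 6 macrophage genes (0.47) were positive, as were 3 of 5 lymphatic endothelial (0.51) and 3 of 4 tested lymphoid genes (0.52), 8 of 8 adipocyte genes were negative (-0.51), and endothelial markers (2 of 9 positive, median -0.05) and smooth muscle markers (2 of 9, -0.10) lay near 0. Without control 1 the medians were 0.33 for the progenitor list, 0.46 for activation and collagen genes, 0.97 for Schwann cell, 0.44 for macrophage, -0.71 for adipocyte (1 of 8 positive), -0.37 for endothelial (2 of 9) and 0.09 for smooth muscle markers (7 of 9). They were 0.39 for the proteoglycans (7 of 8 positive), 0.11 for the PDGF genes (4 of 6), 0.08 for the transcription factors (6 of 9), 0.16 for the carboxypeptidase genes (4 of 6), 0.23 for lymphatic endothelial (3 of 5) and 0.29 for lymphoid markers (4 of 5). Summed Schwann cell markers were 57.5 to 102 CPM in the controls and 94.0 to 196 CPM in the mutants. Their part in the result was not tested, and in whole arteries a difference in fibroblast number and one in RNA per fibroblast cannot be told apart.

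For Pdgfra, Dpt, Lum and Dcn the Y198F+/+ libraries had lower means than their labelled controls and higher means than the S205A controls. All 3 Y198F mutants are of the 22 series and all 3 of their labelled Y198F-/- controls are not, so the mutation and the series cannot be told apart in that comparison. Against those controls Pdgfra, Dpt, Lum and Dcn had lower values without passing the test. Dcn was at 545, 233 and 493 CPM in the mutants and 716, 1157 and 801 CPM in the controls, and Dpt was at 161, 70.5 and 197 CPM against 304, 412 and 313 CPM. Every mutant lay below every control for both genes, as for Pdgfra and Lum. The log2 fold changes were -0.99 (SE 0.345) for Pdgfra, -1.27 (SE 0.411) for Dpt, -1.24 (SE 0.397) for Lum and -1.08 (SE 0.370) for Dcn, with edgeR adjusted p of 0.123, 0.116, 0.114 and 0.121.

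None of the 7 markers passed the edgeR test here, although it called 15% of 16050 genes, and 4 of the 7 were lower without overlap, where 15.1% of all genes were. The calls depended on the tool and on 1 library: limma voom gave these 4 genes adjusted p of 0.00994 to 0.0173, DESeq2 gave Pdgfra an adjusted p of 0.0018, Dpt 0.0268, Lum 0.0253 and Dcn 0.0378, and without Y198F mutant 2 edgeR gave 0.0117, 0.00877, 0.004 and 0.0424. Ly6a was at 515, 486 and 467 CPM in the mutants and 399, 382 and 455 CPM in the controls, higher without overlap (19% of genes); its log2 fold change was 0.24 (SE 0.112, adjusted p 0.176). Pi16 and Cd34 overlapped, at 0.19 (SE 0.121) and 0.08 (SE 0.114). Some markers of other cells passed. Summed endothelial markers were 5299 to 5711 CPM in the mutants and 4094 to 5195 CPM in the controls, with 7 of 9 positive and 2 called higher (Tie1 and Esam). Summed Schwann cell markers were 97.8 to 123 CPM against 130 to 226 CPM, with 5 of 6 negative (median -0.66) and 2 called lower (Mbp and Cdh19). All 5 lymphatic endothelial markers were negative (-0.76) and all 8 adipocyte markers positive (0.88), with none called, and of 9 smooth muscle markers 2 were called higher (Tagln and Smtn) and 1 lower (Lmod1). Their part in the result was not tested. In a fit over the 8 groups that also held a series term, estimated from the S205A line, the fold changes of Pdgfra, Dpt, Lum and Dcn were 0.23, 0.06, -0.05 and -0.01, and without S205A control 1 they were 0.08, -0.12, -0.21 and -0.17.

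Few genes of the related lists passed against the labelled controls. Fold changes were negative in 12 of 15 other fibroblast genes (median -0.44), 8 of 10 adventitial progenitor genes (-0.41) and 6 of 8 tested proteoglycans (-0.39). The same held for 6 of 9 activation and collagen genes (-0.10) and 7 of 9 tested transcription factors (-0.30), while 4 of 6 PDGF genes were positive (0.03). Of macrophage markers 5 of 6 were negative (-0.43). Over all 16050 genes 5.48% were called lower and 9.55% higher, and with lists this small the counts are not read as standing apart from those shares. Of the 15 other fibroblast genes 3 passed, all lower: Col14a1, a fibril-associated collagen (-0.997, SE 0.226, adjusted p 0.0248), Medag (-1.15, SE 0.295, 0.0303) and Abca8a (-0.86, SE 0.219, 0.0363). Scara5, a ferritin receptor, was the only adventitial progenitor gene of 10 to pass (-0.77, SE 0.197, adjusted p 0.0342), and Omd, osteomodulin, the only proteoglycan of 8 tested (-1.19, SE 0.296, adjusted p 0.0201). Among 9 mesenchymal transcription factors and Twist partners, Prrx1 fell (-0.55, SE 0.099975, adjusted p 0.00481) while Snai1 (0.98, SE 0.253, 0.0242) and Tcf3, an E-box partner of the Twist factors (0.37, SE 0.111, 0.0461), rose. Pdgfb, a ligand of the PDGF receptors made by endothelium, was the only one of 6 PDGF genes to pass (0.58, SE 0.144, adjusted p 0.0221). In the S205A line itself, the libraries of the 22 series were lower than the others by a log2 difference of -1.33 (SE 0.519) for Dpt, -1.23 (SE 0.722) for Pdgfra, -1.19 (SE 0.640) for Lum and -1.07 (SE 0.632) for Dcn. For Pi16, Ly6a and Cd34 that difference was 0.17 (SE 0.518), 0.04 (SE 0.598) and -0.17 (SE 0.586). None of the 7 markers passed there, with the lowest adjusted p at 0.211 for Dpt, while 5.02% of 17256 genes did. When S205A control 1 was left out the differences were -1.15 for Dpt, -1.07 for Pdgfra, -1.03 for Lum and -0.90 for Dcn, and 0.36, 0.29 and 0.07 for Pi16, Ly6a and Cd34, with edgeR adjusted p of 0.27 to 0.881 for these 7.

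Against the 3 S205A controls of the same series, Pdgfra, Dcn, Lum and Dpt had positive fold changes in the same Y198F libraries, and none of the 7 markers passed. Pdgfra stood at 13.4 to 34.4 CPM in the mutants and 7.05 to 10.9 CPM in those controls, a log2 fold change of 1.54 (SE 0.362), and Dcn had 1.42 (SE 0.399), both without overlap. Lum and Dpt overlapped, at 1.35 (SE 0.511) and 1.11 (SE 0.477), and Pi16, Ly6a and Cd34 lay at 0.14, -0.17 and 0.22. The edgeR adjusted p was 1 for all 7; edgeR called 0 of 15879 genes (0%), with 492 at an unadjusted p under 0.05, and 4.46% of genes were higher without overlap. DESeq2 called 34 genes, Pdgfra among them with an adjusted p of 0.033. All 15 other fibroblast genes were positive (median 0.86, and 14 of 15 with 0.50 without S205A control 1), and so were 6 of 6 Schwann cell (0.80), 7 of 8 adipocyte (1.459), 4 of 5 lymphatic endothelial (0.98) and 3 of 3 tested lymphoid markers (1.26), with none called. All 10 adventitial progenitor genes were positive (0.50) and all 9 smooth muscle markers negative (-0.24), again with none called. The counts without S205A control 1 were 8 of 10 progenitor genes (0.37) and 6 of 9 smooth muscle markers positive (0.01), 6 of 6 Schwann cell (1.02), 8 of 8 adipocyte (1.22), 3 of 5 lymphatic endothelial (0.84) and 4 of 5 lymphoid markers (0.67). Their part in the result was not tested. Without S205A control 1 the log2 fold changes of Pdgfra, Dcn, Lum and Dpt were 1.40, 1.17, 1.02 and 0.82, and those of Pi16, Ly6a and Cd34 were -0.27, -0.61 and -0.23. These controls are of another mutant line and are the same libraries that serve the S205A comparison, so the values of both comparisons share them. The authors' deposited table for Y198F was matched by the contrast of Y198F with all 4 S205A controls (largest difference 0.00016 in log2 fold change over 18991 genes) and not by that with the labelled controls (r = 0.53 across genes).

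The 3 picked genes split between these views, given without a test. Cpxm1 was at 9.94, 8.54 and 10.5 CPM in the Y198F mutants, below its labelled controls (14.7, 24.5 and 15.9 CPM) and above the S205A controls, with log2 fold changes of -0.93 and 1.464. Gpr153, at 9.07, 7.69 and 14.02 CPM, gave -0.45 and 1.10; the first was -0.16 without Y198F control 2 and -0.73 without Y198F mutant 3. Twist2 alone was higher against both, at 3.59, 2.23 and 2.40 CPM in the mutants and 1.456, 1.07 and 1.14 CPM in the labelled controls, with log2 fold changes of 1.15 and 2.27. Leaving out S205A control 1, the values against the S205A controls were 1.32 for Cpxm1, 0.95 for Gpr153 and 2.03 for Twist2. The Twist2 values rest on 42 to 66 counts a library in the mutants, 19 to 26 in the labelled controls and 7 to 16 in the S205A controls. The authors' deposited table gives Twist2 in Y198F, against the S205A controls, 2.10 on the log2 scale (adjusted p 0.0442) and Cpxm1 1.31 (0.323). The genes were picked by such values, so these DESeq2 p-values are no test of a rise.

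**Figure D4:**
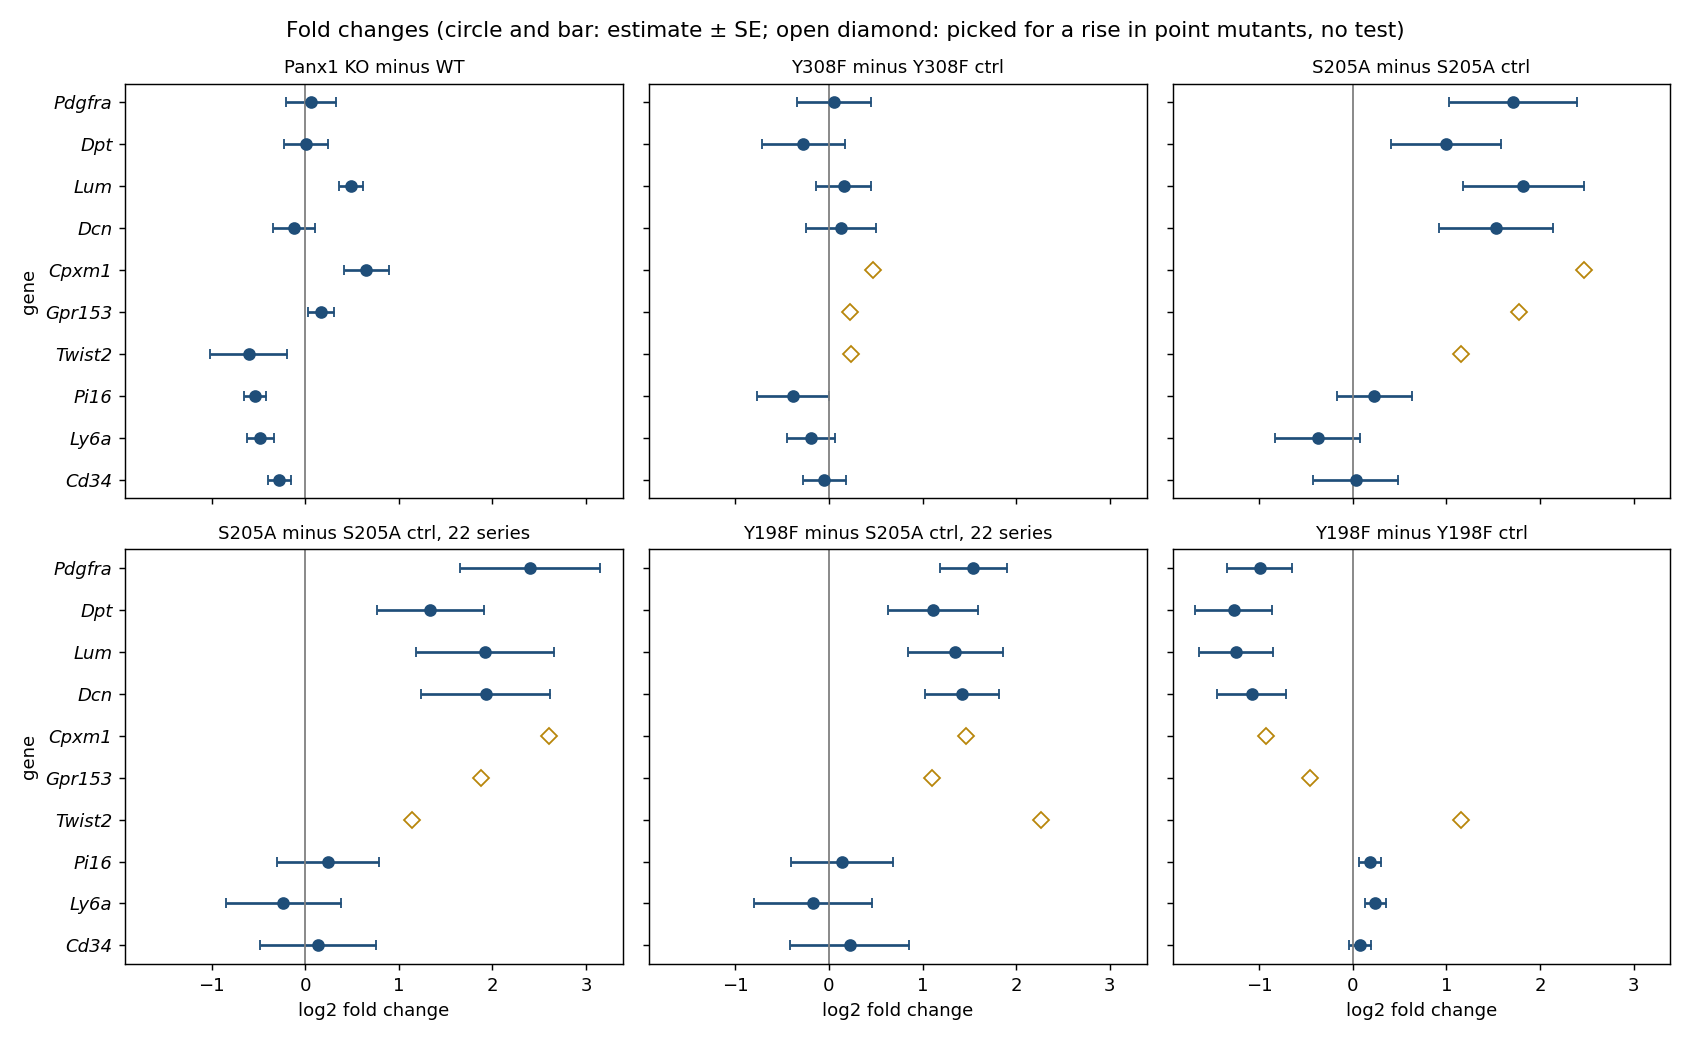
Log2 fold change of each gene in 6 comparisons; circles with bars are edgeR estimates ± SE, and open diamonds are the 3 genes picked for their rise in point mutants, shown without error or test. Pdgfra, Dpt, Lum and Dcn lie at 1.00 to 2.40 in the S205A comparisons and in Y198F against the S205A controls of the 22 series, and at -1.27 to -0.99 in Y198F against its labelled controls.

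In Panx1 KO arteries against WT none of the 10 genes passed, and Pi16, Ly6a and Cd34 had lower values in every KO library. Pi16, whose product belongs to a family of secreted cysteine-rich proteins, was at 153, 160 and 160 CPM in the KO libraries and 259, 203 and 233 CPM in WT. Ly6a was at 366, 353 and 388 CPM against 497, 611 and 456 CPM, and Cd34 at 464, 458 and 486 CPM against 622, 591 and 519 CPM. For these 3 genes every KO library lay below every WT library, as 10.5% of all 16193 genes tested did. The log2 fold changes were -0.54 (SE 0.115), -0.48 (SE 0.140) and -0.28 (SE 0.122), with edgeR adjusted p of 0.289, 0.339 and 0.443.

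Lum went the other way, at 168, 149 and 200 CPM in KO and 135, 121 and 117 CPM in WT, without overlap (8.24% of genes), a log2 fold change of 0.49 (SE 0.128; adjusted p 0.319). Cpxm1, tested here because the knockout did not enter its choice, was at 23.0, 17.1 and 23.2 CPM in KO and 18.2, 9.37 and 13.3 CPM in WT, with overlap, at 0.65 (SE 0.238) and an adjusted p of 0.389. Pdgfra, Dpt and Dcn lay at 0.06 (SE 0.267), 0.01 (SE 0.236) and -0.12 (SE 0.223), and Gpr153 and Twist2 at 0.17 (SE 0.138) and -0.60 (SE 0.411), all with overlap.

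In the knockout edgeR called 5 genes, 0.0309% of those tested. For Pi16 the call depended on the method: its adjusted p was 0.00595 with DESeq2 and 0.0248 without the filter on low counts, and 0.00595 to 0.827 over all alternatives. Without the filter Lum (0.0356) and Cpxm1 (0.021) passed as well. In the authors' deposited table none of the 10 passed, with Pi16 at -0.55 and an adjusted p of 0.726. Summed endothelial markers were 3722 to 4916 CPM in KO and 3354 to 5352 CPM in WT, with 7 of 9 negative (median -0.05), and Pecam1 itself overlapped, at 2615, 1979 and 1887 CPM against 2395, 2705 and 1725 CPM. Summed lymphatic endothelial markers did not overlap, at 98.6 to 179 CPM in KO and 192 to 260 CPM in WT, with 4 of 5 negative (-0.45). Of the 15 other fibroblast genes 6 were positive and 9 negative (median -0.02), and their summed level was 4022 to 5226 CPM in KO and 4363 to 7397 CPM in WT. Of the other lists, 9 of 10 adventitial progenitor genes had a negative fold change (median -0.31), 8 of 9 fibroblast activation and collagen genes (-0.20), 9 of 9 smooth muscle markers (-0.23) and 8 of 8 adipocyte markers (-1.43), against a median of 0.01 over all genes; macrophage markers were positive in 6 of 6 (0.48), and no list had a gene that passed. Summed adipocyte markers were 552 to 1065 CPM in KO and 917 to 2755 CPM in WT. Their part in the result was not tested.

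The Y308F line showed no separation for any of the 10 genes. Dcn, for example, was at 631, 582 and 905 CPM in the mutants and 684, 947 and 322 CPM in the controls, and Cd34 at 599, 673 and 592 CPM against 893, 538 and 506 CPM. Fold changes of the 7 markers ran from -0.38 (Pi16, SE 0.382) to 0.16 (Lum, SE 0.298), with edgeR adjusted p of 0.95 to 0.99, and those of Cpxm1, Gpr153 and Twist2 were 0.47, 0.22 and 0.24, given without a test. That of Twist2 turned to -0.23 without Y308F mutant 1, and that of Cpxm1 was 0.16 without Y308F control 3 and 0.94 without control 2. For Gpr153 it was 0.009 without Y308F control 3 and 0.48 without mutant 2. All 10 overlapped, where 10.7% of 16037 genes did not; edgeR, DESeq2 and limma voom each called 0 genes (0% for edgeR), with 706 at an unadjusted p under 0.05 in edgeR. Y308F control 3 was low for the first set, with 16.4 CPM of Pdgfra and 115 CPM of Dpt, and Y308F control 1 was high for the second, with 430.3 CPM of Pi16 and 893 CPM of Cd34 beside 4419.6 CPM of Pecam1. Of the 15 other fibroblast genes 8 were positive, with a median of 0.00 against -0.03 over all genes. Positive markers of other cells were 0 of 6 mesothelial (median -2.08), 0 of 6 macrophage (-0.43), 0 of 3 tested lymphoid (-0.74) and 1 of 7 Schwann cell (-0.56). They were 2 of 8 for adipocyte (-0.51), 1 of 5 for lymphatic endothelial (-0.36), 2 of 9 for endothelial (-0.17) and 4 of 9 for smooth muscle (-0.02), with none called. Their part in the result was not tested.

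Whether the effects differed between mutations was tested for the 7 markers, leaving out Y198F because of its library series. The difference between the KO and S205A effects was -1.68 (SE 0.921) for Pdgfra, -1.67 (SE 0.811) for Dcn and -0.79 (SE 0.512) for Pi16 on the log2 scale, with an edgeR adjusted p of 0.999 for each of the 7 (1 of 17799 genes called, 0.00562%). Between S205A and Y308F it was 1.64 (SE 0.880) for Lum and 1.63 (SE 0.964) for Pdgfra, and the adjusted p was 1 for all 7. With S205A control 1 left out the differences between KO and S205A were -1.44 for Pdgfra, -1.42 for Dcn and -0.51 for Pi16, and those between S205A and Y308F were 1.37 for Lum and 1.40 for Pdgfra; the lowest edgeR adjusted p of the 7 markers was 0.85 for the former and 0.999 for the latter. With all libraries, the test of S205A against Y308F called in edgeR 0 of 17602 genes (0%), with 615 at an unadjusted p under 0.05, and DESeq2 called 13. Between KO and Y308F it was largest for Lum, at 0.32 (SE 0.356), again with an adjusted p of 1 (2 of 17278 genes called, 0.0116%).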

How the data were processed

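Counts per gene and library were deposited by the authors. Per the labels' protocols, polyadenylated RNA gave paired reads 150 bases long, which were mapped to GRCm39 with STAR 2.7.9a and counted with featureCounts; the annotation and strand setting are not given in the sources used here. The deposited normalized signal equalled the counts divided by DESeq2 size factors, for genes with at least 51 counts in all. The authors' deposited comparison tables hold log2 fold changes, a Wald score and p-values from DESeq2 1.46.0.

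Each of the 4 labelled comparisons, and 2 restricted to the 22 series, was fitted on the counts of its own groups with edgeR 4.0.16 in R 4.3.3 (robust quasi-likelihood test, TMM, filterByExpr). P-values were adjusted by Benjamini-Hochberg over all genes, with calls at an adjusted p under 0.05. All 10 members passed the filter in every comparison. Each SE is the fold change divided by the root of its F statistic. DESeq2 1.42.0, limma 3.58.1 voom with quality weights, DESeq2 size factors, no filter, all 8 groups, the replicate number as a block, the library series as a term and each library left out were alternatives. Log2 CPM used a prior count of 2. Correlations used 100000 permutations over 17 libraries and exact ones over 9, both shuffled across groups. The edgeR step was tested on simulated data. Correlations with Pecam1, the genes nearest to Pdgfra and to Cd34, and the values without S205A control 1 other than its leave-one-out fits were added after the data had been seen. Gene positions and lengths come from GENCODE vM39.

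The members and the gene lists were chosen with earlier results of these data known. By rule the text names the 10 members, members of the lists past the threshold (up to 5 per list) and the 5 genes nearest to the 7 markers. Panx1 is named as the check of the knockout, and Pecam1, Myh11, Adipoq and Ptprc as cell markers set against the members. The genes nearest to Pdgfra and to Cd34, and the nearest genes without S205A control 1, fall outside that rule and were named after their values had been seen. Same-numbered mutants and controls had correlated deviations of -0.28 to 0.23. With so few libraries a group these values cannot exclude pairing, but the labels give none, and the main fits used none. Counts of replicate pairs differed beyond sampling noise (chi-square per degree of freedom 13.6 to 142 over 30 pairs), and each library counted as 1 sample. Gene totals rest on reads without molecular identifiers, so counting precision alone understates the error.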

Additional observations from a re-analysis of the deposited data

Results flagged for a closer look

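Pdgfra in S205A control 4, at 34.2 CPM, stood apart from S205A controls 1 to 3, which lay at 7.05 to 10.9 CPM. The gap to the nearest control was 0.859 of the whole range of the group, above the 95% critical value of Dixon's test for 4 samples. Of 20 values tested, 10 genes in each of 2 groups of 4, this was the only one past it, and chance alone passes about 1 in 20. S205A control 4 is the only S205A control outside the 22 series and was also the highest of the 4 for Dpt (209 CPM), Lum (56.2 CPM), Dcn (451 CPM) and Cpxm1 (5.01 CPM). The part of the library series in this value was not tested apart from the comparison of the series within the S205A line.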

How the results depend on the processing

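Of 550 tested values of the members under the alternatives, 500 kept their direction and their side of the threshold, 32 changed direction, and 18 passed where the reported value did not; no reported member value had passed, so none could lose a pass. Of 180 values of Cpxm1, Gpr153 and Twist2 without a test, 1 changed direction, Twist2 in Y308F, and 2 moved by more than the spread between replicates: Twist2 in Y198F was 1.80 with the library series as a term, and 2.84 against the S205A controls of the 22 series without control 2. Counts of called genes moved more. The KO count of 5 was 156 with DESeq2, 3 with limma voom, 243 without the filter and 1 to 5 with a library left out. The Y198F count of 2411 was 922 with all 8 groups in one fit, 0 with the library series as a term and 908 to 2128 with a library left out. The count of 0 in S205A was 38 with DESeq2 and 0 to 1 with a library left out, and that in Y308F was 7 without the filter and 0 to 1 with a library left out. With DESeq2 and without the filter, Y198F against the S205A controls of the 22 series gave 34 and 9, S205A within the 22 series 57 and 5, the control groups 51 and 23, and the differences between effects 5 and 3 (KO and S205A), 6 and 6 (KO and Y308F) and 13 and 1 (S205A and Y308F). The library series within the S205A line gave 1790 with DESeq2. The cause was not tested.

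The library series term turned Pdgfra and Dpt in Y198F from -0.99 and -1.27 to 0.23 and 0.059. Without S205A control 1 the SE of that fit was 0.849 for Pdgfra and 0.688 for Dpt. Pdgfra in KO was -0.047 with limma voom, Dpt in KO -0.016 with all 8 groups and Cd34 in Y308F 0.089 with limma voom, against reported values of 0.06, 0.01 and -0.05. Leaving out 1 library gave in KO -0.32 to 0.036 for Dcn, -0.15 to 0.36 for Pdgfra and -0.25 to 0.16 for Dpt. In S205A it gave -0.052 to 0.63 for Pi16, -0.29 to 0.37 for Cd34 and -0.69 to 0.026 for Ly6a. In Y308F it gave -0.65 to 0.046 for Dpt, -0.69 to 0.11 for Pi16, -0.35 to 0.14 for Ly6a, -0.19 to 0.27 for Cd34, -0.28 to 0.27 for Pdgfra, -0.078 to 0.39 for Lum, -0.19 to 0.50 for Dcn and -0.23 to 0.60 for Twist2. In Y198F against the S205A controls of the 22 series it gave -0.27 to 0.75 for Pi16, -0.23 to 0.90 for Cd34 and -0.61 to 0.59 for Ly6a. In S205A within the 22 series it gave -0.16 to 0.85 for Pi16, -0.32 to 0.81 for Cd34 and -0.68 to 0.51 for Ly6a.

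With the replicate number as a block, the calls were 19 in KO, 1720 in Y198F, 0 in S205A and 0 in Y308F. The labels give no pairing, and of the mutants 2 of 3, 1 of 3, 1 of 4 and 1 of 3 correlated best with their own number. Twist2, at 7 to 66 counts a library, is the member that depth limits most.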

Other observations

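Twist2, picked for its rise in point mutants, had its highest mean in the Y198F libraries, which is the value that picked it: 2.74 CPM ± 0.740 (SD, n = 3). WT followed at 2.07 ± 0.601. In the KO libraries it stood at 1.34 CPM ± 0.287. Cpxm1 and Gpr153, picked in the same way, had their highest mean in the S205A mutants. For Twist2 the lowest values, 0.363 and 0.389 CPM, rest on 7 counts each.

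Apart from the run shared by Pdgfra and Twist2, the longest run shared by the promoters of Pi16 and Cd34, which varied together, was 11 bases, and that of Cpxm1 and Gpr153, which also varied together, was 12. Cpxm1 and Twist2, at r = 0.25, shared 14 bases. The runs of Cpxm1 with Gpr153 and with Twist2 hold only G and C and match on opposite strands. GC took 72.7% of the Cpxm1 promoter, 77.3% of that of Gpr153 (first start) and 64.7% of that of Twist2. Run lengths between unrelated promoters were not counted. The promoters of Pdgfra and Dpt, at r = 0.89 in expression, shared no run of 8 bases or more. Lum (97400990 to 97408577) and Dcn (97315275 to 97358155) are neighbours on chromosome 10 of GRCm39.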
